A study of Mus musculus with 6 samples.

Results

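Interferon-stimulated genes are the transcripts that cells raise when interferon, a cytokine released on viral infection and by activated lymphocytes, binds its receptor. The 47 genes described here were picked by symbol from a table of 19639 genes, and all 47 were present and had enough counts to be tested among 15287 genes. They fall into 6 roles: 12 Ifit, Oas and Mx genes, 9 Gbp and Irg GTPases, 4 transcription factors, 12 genes of Isg15 conjugation and other antiviral proteins, the 3 genes Parp9, Dtx3l and Parp14, and 7 sensors or processing enzymes of nucleic acids. The counts come from bulk RNA sequencing of mouse lung. All 6 libraries are from RPM mice, a name that in this field stands for a small cell lung cancer model with Rb1 and Trp53 deleted and Myc overexpressed. Of these, 3 came from mice given a lentivirus with a hairpin against Thoc1 (shThoc1) and 3 from mice given a lentivirus with a control hairpin (shControl). The labels do not give the promoter of the deleting recombinase, the age of the animals, the number of animals or the tumour share of a sample. Libraries of a group may or may not be separate animals, so a p-value here covers the spread between libraries, which may be technical. In bulk tissue, fewer cells of a type and less RNA per cell cannot be told apart.

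Type I interferons act through the receptor chains Ifnar1 and Ifnar2 and the kinases Jak1 and Tyk2. A complex that holds Stat2 and Irf9 then binds the interferon-stimulated response element (ISRE). Interferon gamma, made by T cells and natural killer cells, acts through Ifngr1, Ifngr2, Jak1 and Jak2, and its signal reaches genes through the gamma-activated site (GAS). The Ifit, Oas and Mx genes are the classical type I targets, and the GTPases of the Gbp and Irg families are the classical targets of interferon gamma, though many genes answer to both.

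Promoters of many members carry the letters of these elements, and those of 7 members are printed as examples. RefSeq promoters (build GRCm38.p6) matched 36 of the 47 members by symbol, and the 250 bases before the start were searched on both strands. The ISRE core was spelled as GAAA, any 2 bases and GAAA again, and the GAS as TTCNNNGAA. The ISRE core was found in 18 of 36 members, against 936 of 27025 genes with a promoter (3.46%). The GAS was found in 10 of 36 members (27.8%), against 2197 of 27025 genes (8.13%). Among 9 Ifit, Oas and Mx genes with a promoter, 6 held the ISRE core and 2 the GAS. Among 8 Gbp and Irg genes with one, 7 held the ISRE core and 4 the GAS. A match is a stretch of letters and not a shown binding site. In the sequences, given 5′ to 3′ along the gene up to the base before the start, capitals mark the matches, and a run that starts with TTTC is the ISRE core read on the other strand. The matches of Isg15 overlap each other.
Ifit1 (chr19:34640769-34640888, plus strand): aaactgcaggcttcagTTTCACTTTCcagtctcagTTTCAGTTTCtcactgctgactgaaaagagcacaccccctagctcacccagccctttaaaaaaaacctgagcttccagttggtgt
Ifit3 (chr19:34583329-34583528, plus strand): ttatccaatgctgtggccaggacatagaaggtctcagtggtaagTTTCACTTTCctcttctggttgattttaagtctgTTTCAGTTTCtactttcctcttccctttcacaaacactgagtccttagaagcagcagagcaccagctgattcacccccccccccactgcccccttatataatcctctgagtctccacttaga
Ifit3b (chr19:34607757-34607956, plus strand): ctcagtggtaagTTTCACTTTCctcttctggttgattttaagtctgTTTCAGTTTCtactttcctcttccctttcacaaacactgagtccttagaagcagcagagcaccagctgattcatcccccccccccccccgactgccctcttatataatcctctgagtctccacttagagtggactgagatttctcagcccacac
Isg15 (chr4:156200819-156200938, minus strand): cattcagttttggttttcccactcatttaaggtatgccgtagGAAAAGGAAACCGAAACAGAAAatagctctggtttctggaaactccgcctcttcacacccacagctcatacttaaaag
Irf1 (chr11:53769894-53770013, plus strand): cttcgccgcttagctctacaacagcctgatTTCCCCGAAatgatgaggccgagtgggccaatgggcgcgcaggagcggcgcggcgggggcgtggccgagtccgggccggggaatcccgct
Gbp7 (chr3:142530216-142530335, plus strand): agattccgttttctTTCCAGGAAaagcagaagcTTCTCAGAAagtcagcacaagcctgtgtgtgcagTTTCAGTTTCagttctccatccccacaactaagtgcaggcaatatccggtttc
Igtp (chr11:58199436-58199555, plus strand): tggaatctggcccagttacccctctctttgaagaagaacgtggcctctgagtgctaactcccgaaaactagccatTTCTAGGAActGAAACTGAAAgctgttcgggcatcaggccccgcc
The upstream bases of Ifit3 and its copy Ifit3b matched at 216 of 224 aligned positions (96.4%), with the same pair of ISRE cores. Irf1 held a GAS and no ISRE core in this window, and Gbp7 and Igtp held both elements.

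Libraries held 9934583 to 15025199 counts, fewest in shThoc1 replicate 2. Values are given below as CPM, counts per 1000000 counts of the scaled library, always for replicates 1, 2 and 3 in that order. Thoc1, the target of the hairpin and a subunit of the THO complex in RNA export, had 53.4, 69.5 and 61.4 CPM in shThoc1 libraries and 85.7, 80.2 and 85.8 CPM in shControl libraries (log2 fold change −0.45, SE 0.17, adjusted p = 0.304). The library shThoc1 replicate 2 stood apart in its cell type markers. Its 7 T cell markers summed to 819 CPM and its 4 B cell markers to 823 CPM, against at most 77.2 and 74.0 CPM in any other library. Its 4 endothelial markers summed to 199 CPM, against at least 574 CPM elsewhere, and its alveolar gene Sftpc was at 161 CPM against at least 2983 CPM. Log2 fold changes without that library are given below beside each list.

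As a group the 47 members lay mostly above the control level, by small amounts and with wide spread between libraries, but much of this rested on shThoc1 replicate 2. Of the 47, 39 lay above 0 on the log2 fold change scale, shThoc1 over shControl (83.0%), against 52.1% of all genes tested, and the median was 0.60, against 0.035 over all genes tested. No member passed edgeR's quasi-likelihood test at an adjusted p under 0.05, as was the case for every other gene tested (0% called). At an unadjusted p under 0.05 there were 2473 genes in all (16.2%). DESeq2 called 943 of 15287 genes and 1 of 47 members, Parp14. Not every gene could be called there, since 14544 of the genes had a value and the member Ifi27l2a had no adjusted p. The smallest adjusted p of a member was 0.304, which is also the smallest over all genes. At an unadjusted p under 0.05, 9 members were higher (19.1%), against 6.93% of all genes, and 0 were lower, against 9.24%. In 10 members every shThoc1 library lay above every shControl library (21.3%, against 11.1% of all genes), and in 0 members every shThoc1 library lay below (10.5% of all genes). When shThoc1 replicate 2 was left out, 27 of 47 members lay above 0 (57.4%, against 46.8% of all genes), and 3 were higher at an unadjusted p under 0.05 (6.38%, against 11.5% of all genes). The same 10 members then did not overlap, but the share among all genes was then 28%, above the 21.3% of the members, and the median over the members was 0.14, against −0.057 over all genes. In that fit edgeR called 258 genes and 0 members. In the authors' deposited table, 46 members have an adjusted p and 1, Parp14, is under 0.05, against 2.04% of genes that are higher and 3.69% that are lower there.

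**Figure D1:**
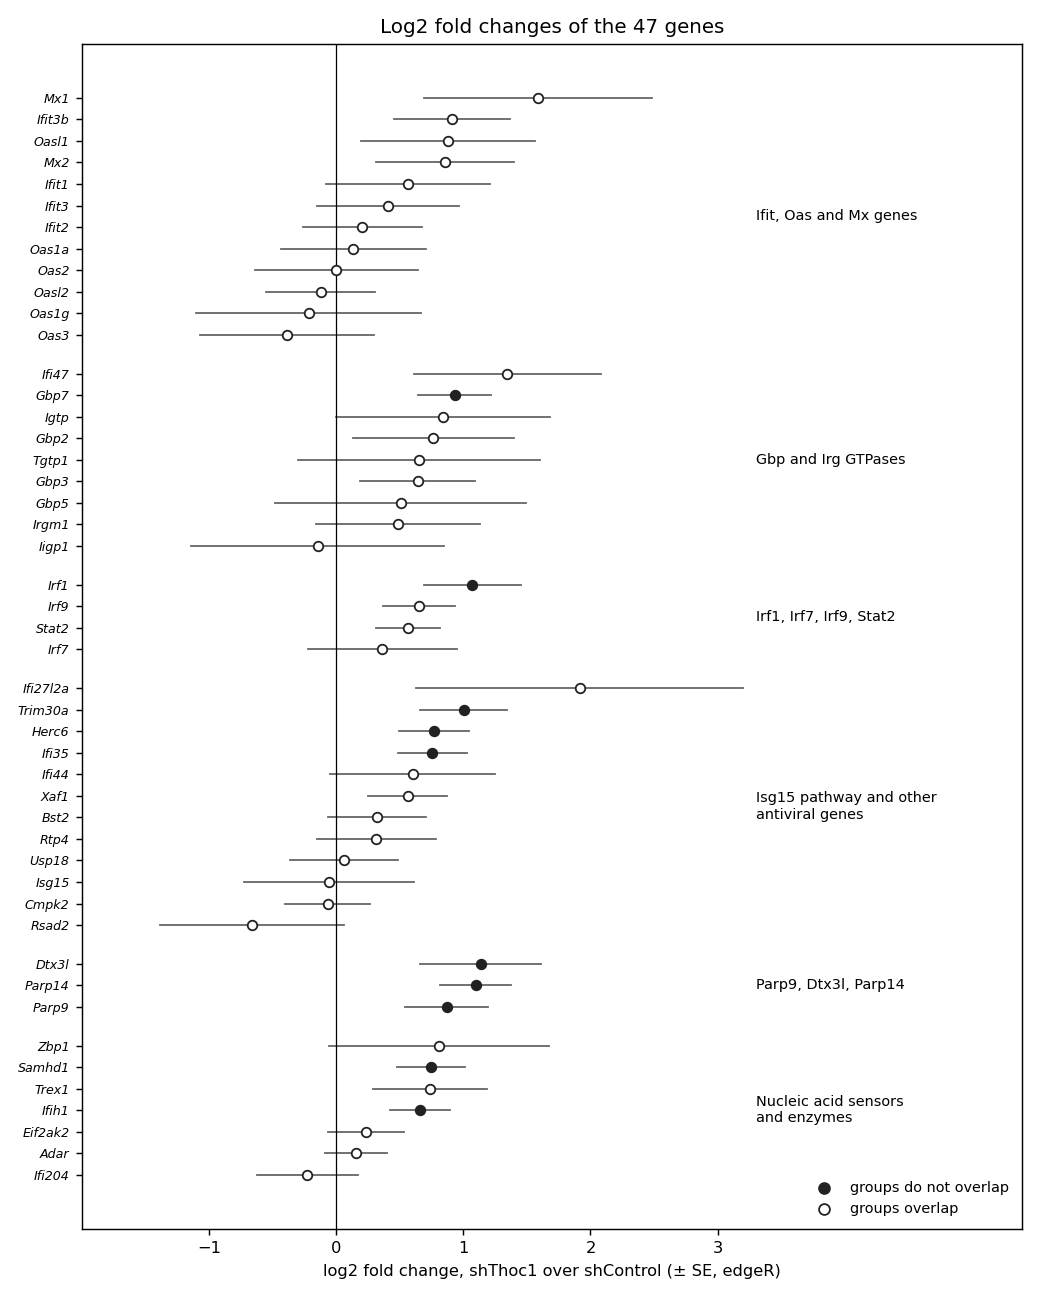
Log2 fold change of each of the 47 genes, shThoc1 over shControl, on the x axis with its standard error from edgeR as a bar, grouped by role. The 10 filled points are genes whose groups do not overlap; none of them is an Ifit, Oas or Mx gene.

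The 12 Ifit, Oas and Mx members, classical type I targets, did not separate the groups, unlike some paralogues given further below. Of 12 genes, 9 lay above 0 on the log2 fold change scale and 3 below. Their median was 0.31, in a range from −0.39 for Oas3 to 1.59 for Mx1. The groups overlapped in 12 of 12, where 11.1% of all genes were higher and 10.5% lower without overlap. The adjusted p ran from 0.355 to 0.9997. The level of the list, the median log2(CPM + 0.5) of its genes, was 3.03, 5.07 and 4.44 in shThoc1 and 4.24, 4.12 and 3.49 in shControl. The lowest library was shThoc1 replicate 1, which was the lowest for 9 of the 12 genes, and shControl replicate 3 was the lowest for the other 3. The highest was shThoc1 replicate 2 for 5 genes, shThoc1 replicate 3 for 4 and shControl replicate 2 for 3. Without shThoc1 replicate 2, 6 of 12 lay above 0.

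Ifit1 binds viral RNA that lacks the host's cap methylation. Ifit1 had 13.4, 71.1 and 77.9 CPM in shThoc1 libraries and 42.6, 42.9 and 24.3 CPM in shControl libraries. Ifit2 had 34.8, 36.8 and 53.3 CPM in shThoc1 libraries and 39.7, 53.3 and 15.4 CPM in shControl libraries. Ifit3 had 62.5, 65.8 and 171 CPM in shThoc1 libraries and 85.3, 105 and 35.4 CPM in shControl libraries. In shThoc1 replicate 1 Ifit1 lay below every other library, while Ifit3 was highest in shThoc1 replicate 3. Ifit3b, the copy whose promoter is printed above, had 14, 20.7 and 36 CPM in shThoc1 libraries and 14.9, 15.3 and 7.4 CPM in shControl libraries, with a log2 fold change of 0.91 (SE 0.46). Of the 50-base stretches in the transcripts of Ifit3 in the GENCODE M21 annotation, 51.2% also occur in Ifit3b, so reads can be split between them. Their summed level was 76.6, 86.5 and 207 CPM in shThoc1 and 100.2, 121 and 42.8 CPM in shControl, which overlap as well. With shThoc1 replicate 2 left out, the log2 fold change was 0.25 for Ifit1 (0.56 with all 6 libraries), 0.22 for Ifit2 (0.21 with all 6 libraries), 0.56 for Ifit3 (0.41 with all 6 libraries) and 0.93 for Ifit3b (0.91 with all 6 libraries).

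Oas enzymes sense double-stranded RNA and make the oligoadenylate that switches on RNase L. Oas1a had 6.67, 35 and 23.6 CPM in shThoc1 libraries and 22.6, 20.6 and 16.2 CPM in shControl libraries. Oas1g had 0.834, 10.2 and 10.7 CPM in shThoc1 libraries and 8.75, 11.6 and 4.83 CPM in shControl libraries. Both were lowest in shThoc1 replicate 1, where Oas1g had 12 counts. Of the 50-base stretches of Oas1a, 57.6% also occur in Oas1g, so their split is uncertain. Oas2 had 8.76, 49.6 and 19 CPM in shThoc1 libraries and 33.7, 17.4 and 26.1 CPM in shControl libraries. Oas3, the longest of the family, had 2.71, 16.4 and 7.21 CPM in shThoc1 libraries and 11, 16.4 and 6.96 CPM in shControl libraries. In both, shThoc1 replicate 1 lay below every control library. Oasl1, which restrains the translation of Irf7, had 2.5, 13.9 and 5.5 CPM in shThoc1 libraries and 5.67, 3.27 and 2.93 CPM in shControl libraries. Oasl2 had 19.7, 47.4 and 63.9 CPM in shThoc1 libraries and 56.4, 44.8 and 41.4 CPM in shControl libraries. These 6 genes spread more widely among shThoc1 than among control libraries. The ratio of the highest to the lowest library ran from 3.24-fold for Oasl2 to 12.8-fold for Oas1g among shThoc1, against 1.36-fold to 2.41-fold among controls. When shThoc1 replicate 2 was left out, the log2 fold change was −0.45 for Oas1a (0.14 with all 6 libraries), −0.62 for Oas1g (−0.22 with all 6 libraries), −0.96 for Oas2 (0.00038 with all 6 libraries), −1.28 for Oas3 (−0.39 with all 6 libraries), −0.051 for Oasl1 (0.88 with all 6 libraries) and −0.25 for Oasl2 (−0.12 with all 6 libraries), so all of these 6 were then below 0.

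Mx proteins are dynamin-like GTPases that block viral nucleocapsids. Mx1 had 2.5, 31.2 and 8.62 CPM in shThoc1 libraries and 5.6, 5.5 and 2.93 CPM in shControl libraries, and Mx2 had 2.22, 8.1 and 7.36 CPM in shThoc1 libraries and 3.08, 3.66 and 3.002 CPM in shControl libraries. Mx1 had the largest log2 fold change of the list, 1.59 (SE 0.90), and it rested on shThoc1 replicate 2: without that library it was 0.18, while that of Mx2, 0.85 (SE 0.54), was 0.49 without it. For both, shThoc1 replicate 1 lay below every control library. Many common laboratory mouse strains carry defective Mx genes, so transcript level says nothing of a working protein.

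**Figure D2:**
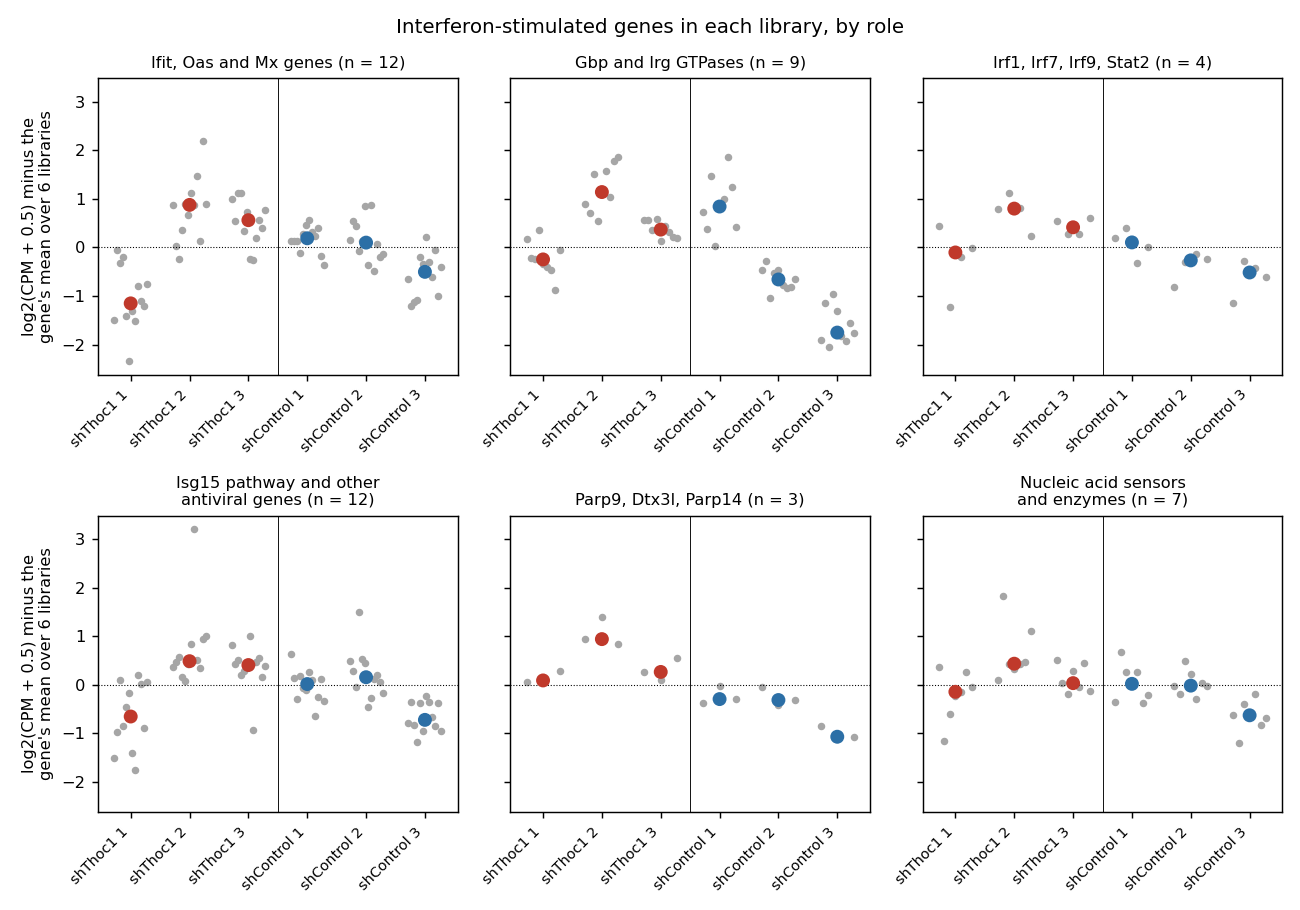
Each grey point is the log2(CPM + 0.5) of 1 gene in 1 library minus that gene's mean over the 6 libraries, and each coloured point is the median of the genes in a role (red, shThoc1; blue, shControl). Ifit, Oas and Mx genes are lowest in shThoc1 replicate 1, whereas the Gbp and Irg GTPases are lowest in shControl replicate 3.

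The Gbp and Irg GTPases attack the vacuoles of intracellular pathogens. By the ratio of highest to lowest library, they varied more among the control libraries than among the shThoc1 libraries. Of 9 genes, 8 lay above 0 on the log2 fold change scale and 1 below. Their median was 0.65, and none passed the test (adjusted p from 0.304 to 0.941). With shThoc1 replicate 2 left out, 5 of 9 lay above 0. The level of the list was 5.45, 6.96 and 6.04 in shThoc1 and 6.47, 5.02 and 3.99 in shControl on the log2(CPM + 0.5) scale. In shControl replicate 1 it lay above shThoc1 replicates 1 and 3, and shControl replicate 3 was the lowest library for 9 of 9 genes. The ratio of the highest to the lowest control library had a median of 6.29, against 2.87 among shThoc1 libraries, and the control ratio was the larger in 9 of 9 genes. For the Ifit, Oas and Mx genes the medians were 5.4 among shThoc1 and 1.93 among control libraries, and the control ratio was the larger in 2 of 12. By the SD of CPM, the GTPases were divided. The SD was larger among shThoc1 libraries for Irgm1, Igtp, Tgtp1 and Ifi47, and larger among controls for the other GTPases.

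Guanylate-binding proteins coat pathogen membranes and help to trigger inflammasomes. Gbp2 had 74.6, 123 and 97.9 CPM in shThoc1 libraries and 109, 47.8 and 17.3 CPM in shControl libraries. Gbp3 had 27.7, 52.4 and 47.9 CPM in shThoc1 libraries and 41.7, 26.3 and 14.1 CPM in shControl libraries. Gbp5, a promoter of inflammasome assembly, had 17.8, 60.9 and 27.5 CPM in shThoc1 libraries and 59.9, 10.04 and 4.76 CPM in shControl libraries. In all of these, shControl replicate 1 lay above shThoc1 replicate 1, and shControl replicate 3 was lowest. Gbp7 had 57.5, 65.5 and 67.8 CPM in shThoc1 libraries and 46.3, 31 and 22.8 CPM in shControl libraries. It averaged 63.6 ± 5.39 CPM in shThoc1 and 33.3 ± 11.9 CPM in shControl (SD, n = 3 each; log2 fold change 0.93, SE 0.29, adjusted p = 0.304). It was the 1 of 9 GTPases whose groups did not overlap (11.1%, against 11.1% of all genes). Without shThoc1 replicate 2, that 1 of 9 stood against 28% of all genes. Its promoter, printed above, holds an ISRE core and a pair of GAS matches. The promoter of Gbp5, not printed, holds the same in the 250 bases searched, and the groups of Gbp5 overlapped. Of the 50-base transcript stretches of Gbp7, 12.7% occur in other genes as well. The log2 fold change without shThoc1 replicate 2 was 0.51 for Gbp2 (0.76 with all 6 libraries), 0.40 for Gbp3 (0.64 with all 6 libraries), −0.20 for Gbp5 (0.51 with all 6 libraries) and 0.85 for Gbp7 (0.93 with all 6 libraries).

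Immunity-related GTPases include regulators, such as Irgm1 and Igtp, and effectors that break vacuoles. Irgm1 had 47.3, 132 and 65.5 CPM in shThoc1 libraries and 107, 43.4 and 23.7 CPM in shControl libraries. Igtp had 32.9, 132 and 59.7 CPM in shThoc1 libraries and 87.9, 25.5 and 12 CPM in shControl libraries. The effector Iigp1 had 43.2, 124 and 75 CPM in shThoc1 libraries and 219, 33.5 and 15.4 CPM in shControl libraries, so its highest level was in a control library, and its log2 fold change was −0.15 (SE 0.99). Tgtp1 had 30.4, 196 and 66 CPM in shThoc1 libraries and 135, 31.9 and 19 CPM in shControl libraries. Its neighbour Tgtp2 shares 79.4% of the stretches of Tgtp1, and the pair summed to 94.2, 418 and 161 CPM in shThoc1 and 256, 60.9 and 55.8 CPM in shControl. Ifi47 had 51.1, 193 and 61.1 CPM in shThoc1 libraries and 71, 33.4 and 15.4 CPM in shControl libraries, the largest log2 fold change of the list at 1.35 (SE 0.74) with all libraries. In Irgm1, Igtp, Tgtp1 and Ifi47 the highest library was shThoc1 replicate 2 and the next was shControl replicate 1. With shThoc1 replicate 2 left out, the log2 fold change was −0.11 for Irgm1 (0.49 with all 6 libraries), 0.088 for Igtp (0.84 with all 6 libraries), −0.65 for Iigp1 (−0.15 with all 6 libraries), −0.43 for Tgtp1 (0.65 with all 6 libraries) and 0.43 for Ifi47 (1.35 with all 6 libraries), and Gbp7, at 0.85, was then the largest of the list.

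Set against each other within a library, the levels of the lists did not keep a fixed distance. The GTPase level minus the Ifit, Oas and Mx level was 2.42, 1.89 and 1.60 in shThoc1 and 2.23, 0.90 and 0.50 in shControl, as differences of log2 levels. The groups overlapped, since shControl replicate 1 stood above shThoc1 replicates 2 and 3. Both medians, and their order, depended on the libraries used. With shThoc1 replicate 2 left out, the GTPase median log2 fold change was 0.088, and it was 0.065 for the Ifit, Oas and Mx genes. Without shControl replicate 1 it was 1.67 for the GTPases and 0.36 for the Ifit, Oas and Mx genes, and 8 of the 9 GTPases did not overlap between the groups, where 13.3% of all genes were higher without overlap. Without shControl replicate 2 the order turned, at 0.63 for the GTPases and 0.65 for the Ifit, Oas and Mx genes. Without shThoc1 replicate 1 the Ifit, Oas and Mx median was 0.62, and 5 of 12 did not overlap, where 13.7% of all genes were higher without overlap.

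**Figure D3:**
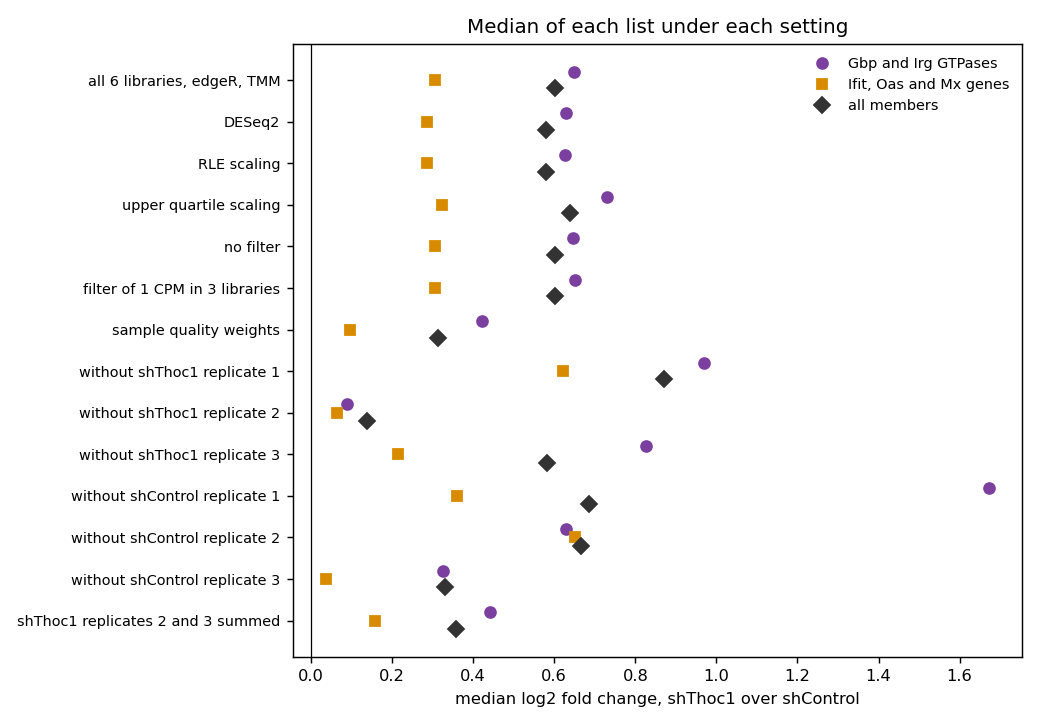
Median log2 fold change, shThoc1 over shControl, of the GTPases (circles), the Ifit, Oas and Mx genes (squares) and all 47 genes (diamonds) under each way of fitting. The medians are above 0 throughout, lie between 0.065 and 0.14 without shThoc1 replicate 2, and reach 1.67 for the GTPases without shControl replicate 1.

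Among the 4 transcription factors, Irf1 was the 1 that was higher without overlap (25%, against 11.1% of all genes). Without shThoc1 replicate 2, that 25% stood against 28% of all genes. Irf1, which interferon gamma induces, which drives Gbp genes and whose promoter with its GAS is printed above, had 156, 198 and 169 CPM in shThoc1 libraries and 132, 65.5 and 51.4 CPM in shControl libraries (log2 fold change 1.07, SE 0.38, adjusted p = 0.304). Its lowest shThoc1 library lay above its highest control. Irf7, the factor that amplifies type I interferon, had 14.5, 75.6 and 42.1 CPM in shThoc1 libraries and 46.1, 28 and 28.6 CPM in shControl libraries, lowest in shThoc1 replicate 1 as for the Oas genes. Its log2 fold change was 0.36 (SE 0.59), and −0.34 without shThoc1 replicate 2. Irf9 and Stat2 are parts of the complex that binds the ISRE. Irf9 had 52.8, 107 and 73.5 CPM in shThoc1 libraries and 48.6, 55 and 45 CPM in shControl libraries, with a log2 fold change of 0.65 (SE 0.28). Stat2 had 61.9, 74 and 95.5 CPM in shThoc1 libraries and 62.7, 52.9 and 40.8 CPM in shControl libraries, with a log2 fold change of 0.57 (SE 0.25). For each of them 1 shThoc1 library, replicate 1, fell within the control range, and neither passed the test (adjusted p = 0.320 for Irf9 and 0.321 for Stat2). When shThoc1 replicate 2 was left out, the log2 fold change was 0.90 for Irf1 (1.07 with all 6 libraries), 0.28 for Irf9 (0.65 with all 6 libraries) and 0.53 for Stat2 (0.57 with all 6 libraries).

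Parp9, Dtx3l and Parp14 were higher without overlap in 3 of 3 genes, with and without shThoc1 replicate 2, where the shares of all genes were 11.1% and 28%. Parp14 is a mono-ADP-ribosyltransferase, and Parp9 works bound to the ubiquitin ligase Dtx3l, next to which its gene lies. Parp14 had 104, 153 and 126 CPM in shThoc1 libraries and 69.5, 68.6 and 40.4 CPM in shControl libraries, 128 ± 24.4 CPM in shThoc1 and 59.5 ± 16.5 CPM in shControl (SD, n = 3 each; log2 fold change 1.10, SE 0.28, adjusted p = 0.304). It had the smallest unadjusted p of the members, 0.00735, and in the authors' deposited table its log2 fold change is 1.08 with an adjusted p of 0.029. Parp9 had 53.8, 99.2 and 61.9 CPM in shThoc1 libraries and 39.5, 49.8 and 28.4 CPM in shControl libraries, and Dtx3l had 44, 109 and 44.4 CPM in shThoc1 libraries and 40.4, 30.7 and 18.7 CPM in shControl libraries. Both were far higher in shThoc1 replicate 2 than in the other libraries, and in Dtx3l replicates 1 and 3 lay only just above the highest control. Their log2 fold changes were 0.87 (SE 0.32) for Parp9 and 1.14 (SE 0.48) for Dtx3l, and without shThoc1 replicate 2 they were 0.49 and 0.50, against 0.88 for Parp14.

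The list of Isg15 conjugation and other antiviral genes was mixed. Of 12 genes, 9 lay above 0 on the log2 fold change scale and 3 below. The median was 0.44, and 3 of 12 genes were higher without overlap, against 11.1% of all genes. Without shThoc1 replicate 2 the median was −0.020, 6 of 12 lay above 0, and the same 3 of 12 without overlap stood against 28% of all genes. Trim30a, a ubiquitin ligase that dampens inflammatory signalling, had 31.6, 62 and 39.9 CPM in shThoc1 libraries and 24.2, 26.9 and 15.5 CPM in shControl libraries. Ifi35 had 52.1, 64.6 and 63.3 CPM in shThoc1 libraries and 28.8, 49.2 and 28.6 CPM in shControl libraries. Herc6, the ligase that joins Isg15 to proteins in the mouse, had 26.1, 36.5 and 34.8 CPM in shThoc1 libraries and 19.9, 23.7 and 13.6 CPM in shControl libraries. These 3 were higher in every shThoc1 library, with log2 fold changes of 1.00 (SE 0.34), 0.75 (SE 0.27) and 0.77 (SE 0.28) and an adjusted p of 0.304 each. Without shThoc1 replicate 2 these were 0.62, 0.63 and 0.61.

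The remaining 9 genes of that list had log2 fold changes from −0.67 to 1.92 and adjusted p from 0.385 to 0.964, and the following were chosen after their values were seen. Isg15, the ubiquitin-like modifier itself, had 6.67, 25.6 and 35.4 CPM in shThoc1 libraries and 31, 28.1 and 11.3 CPM in shControl libraries, and Usp18, the protease that removes it and blocks the type I receptor, had 16.1, 44.4 and 43.3 CPM in shThoc1 libraries and 35.6, 39 and 25 CPM in shControl libraries. Both were lowest in shThoc1 replicate 1 and overlapped, with log2 fold changes of −0.059 (SE 0.67) and 0.062 (SE 0.43). Rsad2 (viperin), which makes a chain-terminating nucleotide, had 5.49, 11.6 and 12 CPM in shThoc1 libraries and 11.8, 29.95 and 4.32 CPM in shControl libraries. Its highest value was in shControl replicate 2, and its log2 fold change of −0.67 (SE 0.72) was the lowest of the members. Cmpk2, a nucleotide kinase gene next to Rsad2, had 14.9, 21.8 and 25.3 CPM in shThoc1 libraries and 19.7, 29.8 and 15.7 CPM in shControl libraries. Bst2 (tetherin), which holds budding virions at the cell surface, had 44.2, 67.5 and 63.1 CPM in shThoc1 libraries and 46.4, 68 and 25.4 CPM in shControl libraries, with overlap. Ifi44, Xaf1 and Rtp4 also overlapped, with log2 fold changes of 0.60 (SE 0.65) for Ifi44, 0.56 (SE 0.31) for Xaf1 and 0.32 (SE 0.47) for Rtp4. The log2 fold change without shThoc1 replicate 2 was −0.23 for Isg15 (−0.059 with all 6 libraries), −0.23 for Usp18 (0.062 with all 6 libraries), −0.88 for Rsad2 (−0.67 with all 6 libraries), −0.18 for Cmpk2 (−0.069 with all 6 libraries), 0.14 for Bst2 (0.32 with all 6 libraries), 0.30 for Ifi44 (0.60 with all 6 libraries), 0.48 for Xaf1 (0.56 with all 6 libraries) and −0.28 for Rtp4 (0.32 with all 6 libraries). Ifi27l2a had 10.8, 349 and 19.5 CPM in shThoc1 libraries and 40.1, 31 and 29.3 CPM in shControl libraries. It had the largest log2 fold change of the members, 1.92 (SE 1.29), and it rested on 1 library: without shThoc1 replicate 2 it was −1.21, and both shThoc1 libraries then lay below every control.

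Among sensors and enzymes of nucleic acids, 6 of 7 were above 0 on the log2 fold change scale, with a median of 0.66, and 2 of 7 were higher without overlap, against 11.1% of all genes. When shThoc1 replicate 2 was left out, 4 of 7 lay above 0, the median was 0.066, and the 2 of 7 stood against 28% of all genes. Ifih1 (Mda5), which senses long double-stranded RNA, had 42, 34.9 and 46.5 CPM in shThoc1 libraries and 25.4, 32 and 20.8 CPM in shControl libraries (log2 fold change 0.66, SE 0.24, adjusted p = 0.304). Samhd1, which depletes nucleotides needed by viruses and for DNA synthesis, had 307, 354 and 348 CPM in shThoc1 libraries and 197, 262 and 143 CPM in shControl libraries (log2 fold change 0.74, SE 0.27, adjusted p = 0.304). Without shThoc1 replicate 2 the difference was 0.70 for Ifih1 and 0.64 for Samhd1 on the log2 scale. Trex1, a DNA exonuclease, had 8.62, 19.8 and 8.17 CPM in shThoc1 libraries and 7.7, 8.76 and 5.42 CPM in shControl libraries. Its transcripts share 95.8% of their 50-base stretches with the neighbouring gene Atrip, whose own log2 fold change was −0.38, so the level of Trex1 is uncertain. The other 4 had log2 fold changes from −0.23 to 0.81 and adjusted p from 0.626 to 0.763. Of these, chosen after their values were seen, Zbp1, a sensor of Z-form nucleic acid that starts cell death, had 6.67, 56.2 and 15.8 CPM in shThoc1 libraries and 24.9, 13.5 and 6.44 CPM in shControl libraries. Adar, the RNA editing enzyme that keeps the cell's own RNA from being sensed, had 65.5, 97.2 and 70.1 CPM in shThoc1 libraries and 86.7, 58.7 and 63.8 CPM in shControl libraries. Ifi204, a sensor of DNA that shares 20.0% of its stretches with other genes, had a log2 fold change of −0.23 (SE 0.40), and Eif2ak2 (PKR), the kinase that halts translation on double-stranded RNA, one of 0.23 (SE 0.30). Zbp1 varied 8.42-fold among shThoc1 libraries and Adar 1.48-fold. With shThoc1 replicate 2 left out, the log2 fold change was 0.14 for Trex1 (0.74 with all 6 libraries), −0.47 for Zbp1 (0.81 with all 6 libraries), −0.64 for Ifi204 (−0.23 with all 6 libraries), 0.066 for Eif2ak2 (0.23 with all 6 libraries) and −0.10 for Adar (0.15 with all 6 libraries).

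**Figure D4:**
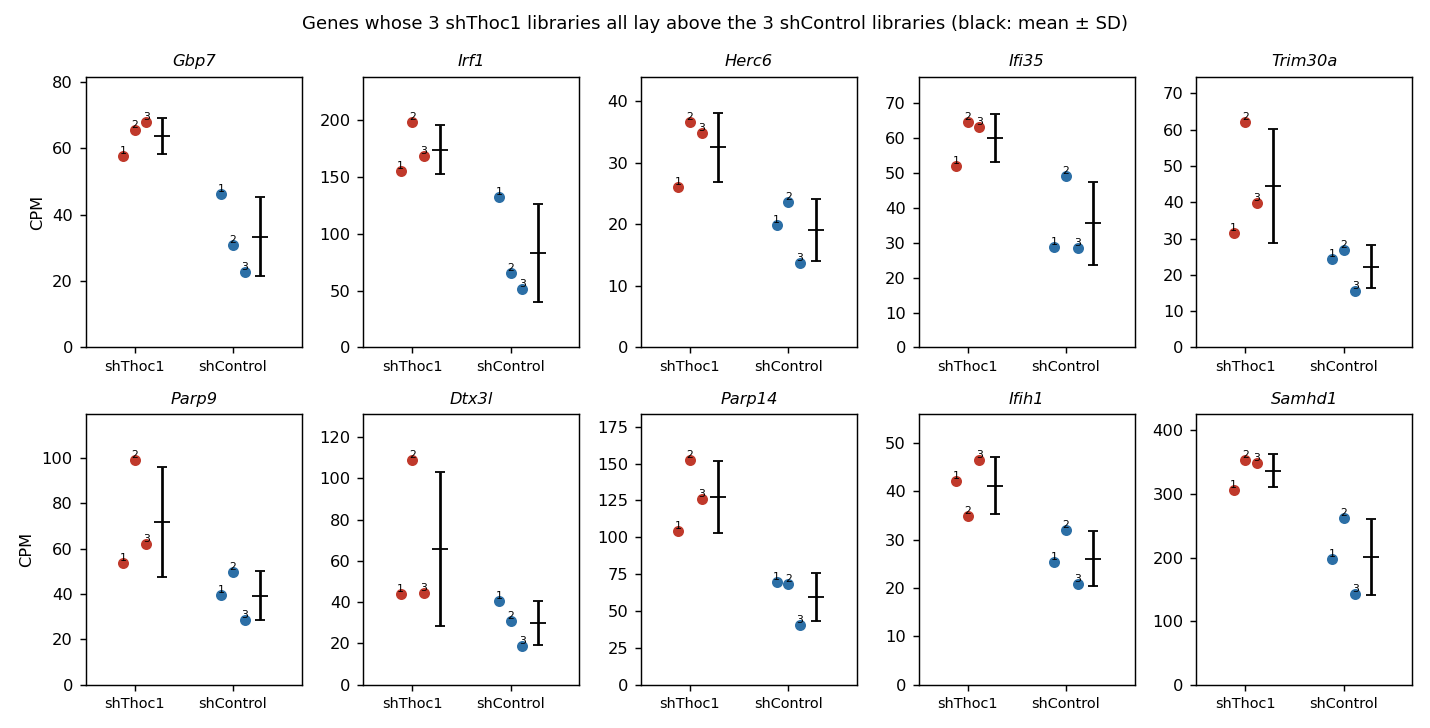
CPM of the 10 genes whose groups do not overlap, with each library as a numbered point (red, shThoc1; blue, shControl) and the mean ± SD beside it, on axes that start at 0. In all 10 the 3 shThoc1 libraries lie above the 3 shControl libraries, and in Dtx3l, Parp9 and Trim30a replicate 2 stands well above the other shThoc1 libraries.

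The 10 genes without overlap had log2 fold changes from 0.66 to 1.14, or 1.58-fold to 2.20-fold, with SEs from 0.24 to 0.48. An exact permutation test of 3 against 3 libraries cannot go below p = 0.1, so it could not call any of them. Of the 8 among them with a promoter in RefSeq, 2 held the ISRE core and 3 the GAS in the 250 bases searched. Of the 28 members with overlap and a promoter, 16 held the ISRE core and 7 the GAS. These are counts of letters and no test was made of their difference.

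The genes that make, receive and pass on the interferon signal were read from the same fit. Of 9 listed interferon genes, Ifng, the gene of interferon gamma, was the 1 found among the 19639 genes. The other 8, Ifnb1 among them, had no row under their symbols, so no level can be given for them. Ifng had 6, 21 and 2 counts in shThoc1 libraries and 19, 0 and 2 counts in shControl libraries, too few to be tested, and a count of 0 in shControl replicate 2 allows up to 3 counts, or 0.239 CPM (counting error only). The libraries with 19 and 21 counts, shControl replicate 1 and shThoc1 replicate 2, were also those with the highest level of the GTPase list.

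All 6 receptor genes lay above 0 on the log2 fold change scale (median 0.64), and 0 of 6 had groups without overlap. Of all genes, 11.1% were higher without overlap. Without shThoc1 replicate 2, 5 of 6 were higher without overlap, against 28% of all genes, and the median was 0.72. Ifnar1 had 89.2, 90.6 and 79 CPM in shThoc1 libraries and 66.3, 105 and 47.2 CPM in shControl libraries, and Ifnar2 had 93.5, 79.4 and 94.4 CPM in shThoc1 libraries and 48.1, 83.3 and 35.6 CPM in shControl libraries. Ifngr1 had 286, 181 and 264 CPM in shThoc1 libraries and 109.9, 241 and 119 CPM in shControl libraries, and Ifngr2 had 70.05, 59.9 and 69 CPM in shThoc1 libraries and 42.8, 68.6 and 34.6 CPM in shControl libraries. In each of these 4 genes shControl replicate 2 lay above the lowest shThoc1 library. Il10rb, the chain shared by interferon lambda and interleukin 10 receptors, had the smallest p of the list, at 82 ± 14.5 CPM in shThoc1 and 46.3 ± 18.6 CPM in shControl (SD, n = 3 each; log2 fold change 0.82, SE 0.32, adjusted p = 0.305).

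Of 8 genes of Jak-Stat signalling and its brakes, 6 were above 0 and 2 below, with a median of 0.55. Of the brakes, named after their values were seen, Socs3 was at −0.37, Ptpn2 at −0.14, Socs1 at 0.20 and Pias1 at 0.41, so they had no common direction. Tyk2, the kinase of the type I receptor, had 55.9, 52.2 and 49.2 CPM in shThoc1 libraries and 23.7, 34.5 and 22.7 CPM in shControl libraries (log2 fold change 0.96, SE 0.22, adjusted p = 0.304), and in the authors' deposited table its adjusted p is 0.0143. Jak1, which serves both receptors, had 247, 409.9 and 194 CPM in shThoc1 libraries and 120.2, 188 and 89.2 CPM in shControl libraries (log2 fold change 1.10, SE 0.40, adjusted p = 0.304). Both were higher without overlap, as 2 of the 8 genes (25%), against 11.1% of all genes. When shThoc1 replicate 2 was left out, the log2 fold change was 0.90 for Tyk2 and 0.67 for Jak1. Of the 8 genes, 5 then lay above 0, with a median of 0.45, and 3 were higher without overlap (37.5%, against 28% of all genes).

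Among 15 genes that lead to interferon production, 15 were above 0, with a median of 0.64, and 5 of 15 were higher without overlap, against 11.1% of all genes. With shThoc1 replicate 2 left out, 13 of 15 lay above 0, with a median of 0.41, and 7 of 15 were higher without overlap, against 28% of all genes. Irf5 averaged 27.7 ± 7.67 CPM in shThoc1 and 12.6 ± 3.57 CPM in shControl, and Irf3 averaged 45.1 ± 1.97 CPM in shThoc1 and 28.9 ± 4.82 CPM in shControl (SD, n = 3 each; adjusted p = 0.304 for both). In the authors' deposited table the adjusted p is 0.0457 for Irf5 and 0.055 for Irf3. Of 25 family paralogues outside the members, 23 were in the table and 17 were tested. All 17 were above 0, with a median of 1.07, and 8 of 17 were higher without overlap, against 11.1% of all genes. When shThoc1 replicate 2 was left out, 12 of 17 lay above 0, with a median of 0.62, and 8 of 17 were higher without overlap, against 28% of all genes. The tested Ifit and Oas paralogues, Ifit1bl1, Ifit1bl2, Oas1b and Oas1c, were all among these, and were named after their values were seen. Their log2 fold changes ran from 0.97 for Oas1c to 1.81 for Ifit1bl1. Without shThoc1 replicate 2 they ran from 0.53 for Oas1b to 1.75 for Ifit1bl2. Ifi203, a sensor-family gene, had 73.8, 221 and 77.1 CPM in shThoc1 libraries and 44.2, 49.9 and 28.8 CPM in shControl libraries, and Ifit1bl1 had 9.03, 37.7 and 14.3 CPM in shThoc1 libraries and 6.65, 6.53 and 4.17 CPM in shControl libraries. Both were highest in shThoc1 replicate 2, without which their log2 fold changes were 0.82 and 0.94, against 1.60 and 1.81 with it. No gene of these lists passed edgeR's test over all genes.

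Marker lists of other cell types also differed between libraries, and their part in the result was not tested. The summed GTPase level was 382, 1079 and 568 CPM in shThoc1 and 877, 283 and 144 CPM in shControl. For the Ifit, Oas and Mx genes the sum was 171, 406 and 484 CPM in shThoc1 and 329, 340 and 187 CPM in shControl. Natural killer cell markers (6 of 6 in the table) summed to 37.9, 34.4 and 20.4 CPM in shThoc1 and 8.89, 7.25 and 8.49 CPM in shControl, with no overlap of the sums. Of the 5 tested, 3 were higher without overlap, against 11.1% of all genes (28% without shThoc1 replicate 2). Prf1 overlapped, at 2.53 CPM in shThoc1 replicate 3 and 2.66 CPM in shControl replicate 1. Gzma had 22.2, 1.68 and 9.21 CPM in shThoc1 and 2.52, 3.90 and 4.10 CPM in shControl, so shThoc1 replicate 2 lay below every control. Gzma thus made up most of the summed level in shThoc1 replicate 1 and little of it in shThoc1 replicate 2. Klrb1c had 10, 1 and 1 counts in shThoc1 and 0, 0 and 3 counts in shControl. T cell markers (7 of 8) summed to 71.4, 819 and 77.2 CPM in shThoc1 and 56.9, 34.1 and 29.6 CPM in shControl, and B cell markers (4 of 4) to 54.3, 823 and 74 CPM in shThoc1 and 62.2, 44.2 and 24.2 CPM in shControl. Both were highest in shThoc1 replicate 2, the library in which 29 of the 47 members were highest. The T cell sums did not overlap between the groups either, whereas the B cell sums did. Of the 7 T cell markers, 5 were higher without overlap, against 11.1% of all genes, and of the 4 B cell markers, 2 were. The general leukocyte gene Ptprc had 215, 941 and 192 CPM in shThoc1 libraries and 99.2, 119 and 81.7 CPM in shControl libraries, also without overlap. Macrophage markers (6 of 6) summed to 154 to 267 CPM in shThoc1 and 120 to 250 CPM in shControl, and neutrophil markers (5 of 5) to 31.1 to 632 CPM in shThoc1 and 153 to 359 CPM in shControl. Plasmacytoid dendritic cell markers (4 of 4) summed to 111 to 169 CPM in shThoc1 and 248 to 300 CPM in shControl, most of it the widely expressed Tcf4. Siglech had 1.46, 5.33 and 1.19 CPM in shThoc1 libraries and 0.42, 0.637 and 0.952 CPM in shControl libraries, and Ccr9 had 1.04, 5.73 and 0.966 CPM in shThoc1 libraries and 0.42, 0.319 and 0.22 CPM in shControl libraries, both higher without overlap and at low counts. Pacsin1 had 0.278, 9.68 and 0.297 CPM in shThoc1 libraries and 3.57, 0.637 and 2.86 CPM in shControl libraries, with overlap. The 4 markers thus had no common direction.

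Markers of the tumour and of the lung varied too. The 6 neuroendocrine tumour markers summed to 6.74, 85.1 and 8.02 CPM in shThoc1 and 249.8, 47.5 and 217 CPM in shControl, with Neurod1 at 0 in shThoc1 replicates 1 and 3 and Dll3 at 0 in shThoc1 replicate 1. The 5 markers of dividing cells summed to 41.3, 524 and 89.5 CPM in shThoc1 and 1059.9, 501 and 979 CPM in shControl. The library lowest in both, shThoc1 replicate 1, was the lowest for 17 of the 47 members, and shControl replicate 3, where both were high, was the lowest for 29. Endothelial markers (4 of 4) summed to 2313, 199 and 1651 CPM in shThoc1 and 711, 1327 and 574 CPM in shControl, and lung epithelial markers (5 of 5) to 9285 to 38813 CPM in shThoc1 and 11492 to 21078 CPM in shControl. Whether the members' levels follow the cell make-up of a library was not tested.

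**Figure D5:**
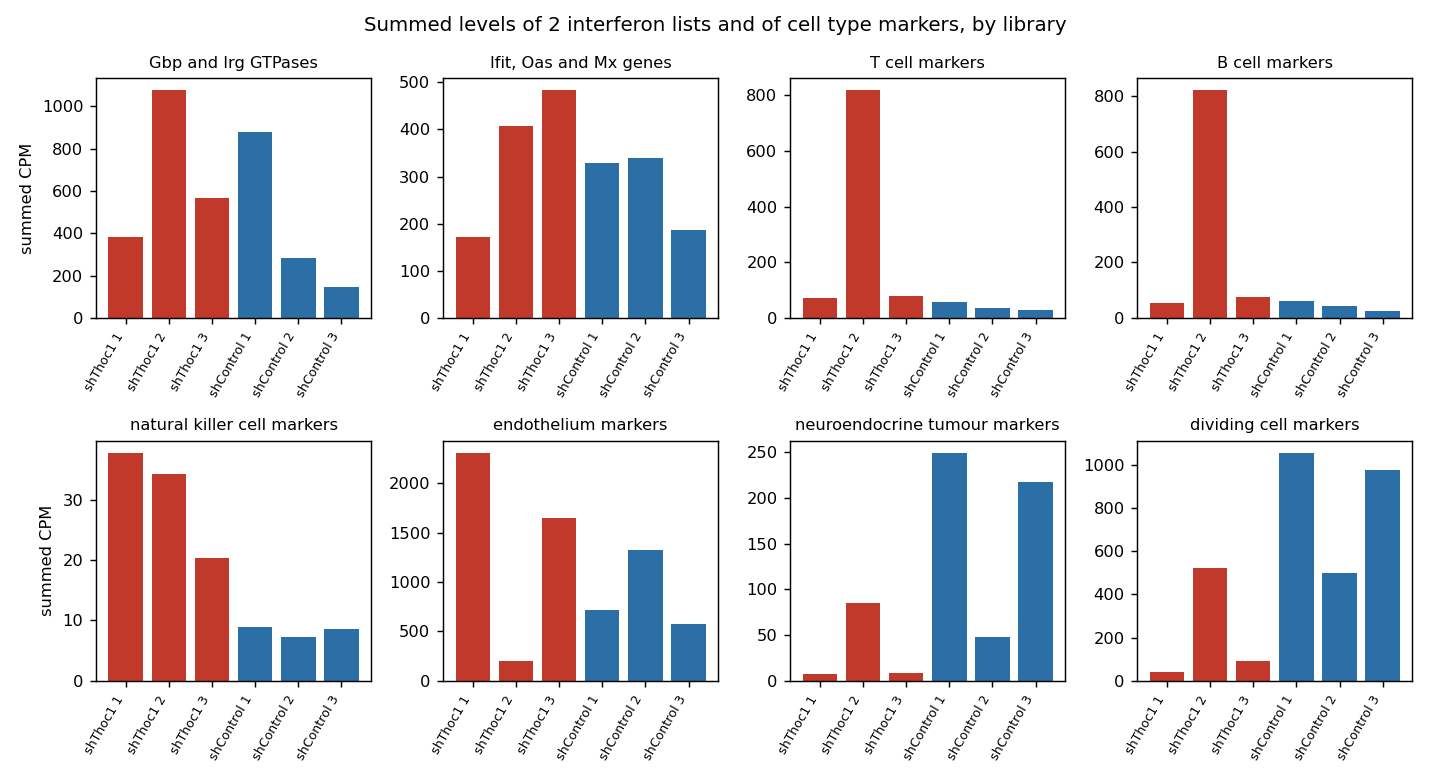
Summed CPM of the GTPases, the Ifit, Oas and Mx genes and 6 marker lists in each library (red, shThoc1; blue, shControl), on linear axes from 0 that differ between panels. The GTPases are highest in shThoc1 replicate 2 and shControl replicate 1, and T and B cell markers are highest in shThoc1 replicate 2. Natural killer cell markers and T cell markers are both higher in all 3 shThoc1 libraries than in any shControl library.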

How the data were processed

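RNA of 6 mouse lung samples was sequenced, 3 shThoc1 and 3 shControl. Libraries were prepared with NEBNext Ultra reagents from RNeasy-purified RNA, per the labels' protocols. The authors deposited raw counts per gene and library; the build was GRCm39 per the submitters' processing notes, and which aligner, counting tool and strand setting were used is not given in the sources used here. Reads of overlapping or antisense genes may therefore be mixed. Per the file headers, the deposited table also holds the authors' log2 fold changes with standard errors, a test score, and a p-value and adjusted p-value per gene in DESeq2's naming, and a mean normalised signal that was not used.

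Genes were tested with edgeR 4.0.16 (R 4.3.3; filterByExpr, TMM scaling, robust quasi-likelihood F-test, Benjamini-Hochberg adjustment over 15287 genes; 4352 genes were not tested). A call is an adjusted p under 0.05. The SE comes from the F statistic, CPM uses TMM-scaled library sizes, and list levels use a pseudocount of 0.5. The common biological coefficient of variation was 0.480. The code was tested on simulated counts. Alternatives were DESeq2 1.42.0, RLE and upper quartile scaling, no filter, a filter of 1 CPM in 3 libraries, limma 3.58.1 with sample quality weights, each library left out, and shThoc1 replicates 2 and 3 summed, since their titles share a number. Replicate numbers follow record order and pair nothing.

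The members and lists were chosen with earlier results of these data known. Values per library are given for Ifit, Oas, Mx, Gbp, Irg and transcription factor genes, and elsewhere for the 3 members with the smallest p; of pathway genes, for Ifng and the Ifnar and Ifngr genes, and values or means ± SD for the 2 with the smallest p per list. Values of other genes, such as Isg15, Usp18, Rsad2, Cmpk2, Bst2, Ifi27l2a, Zbp1 and Adar, were chosen for print after they were seen. Pathway lists without shThoc1 replicate 2 were added after the data were seen. The result of 1 pathway gene is not reported here. Promoter sequences are from RefSeq on GRCm38.p6, another build than that of the counts, and were matched by symbol. Shared 50-base stretches were counted over GENCODE M21 transcripts. No row had the same 6 counts as a member.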

Additional observations from a re-analysis of the deposited data

How the results depend on the processing

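The medians over all members, the GTPases and the Ifit, Oas and Mx genes stayed above 0 under every alternative run, with as few as 27 of 47 members above 0 (without shThoc1 replicate 2), and no member was called by edgeR in any of them. The count of genes called was 943 with DESeq2, 6817 with sample quality weights and 0 to 258 with 1 library left out, 258 being without shThoc1 replicate 2. Members called were 1 of 47 with DESeq2 (Parp14), beside 943 of 15287 genes, of which 14544 had a value. With sample quality weights they were 9 of 47, beside 6817 of 15287 genes. By share, with both directions pooled, members were thus called less often than all genes under both, though with DESeq2 this rested on 1 member. The members called were all higher, and these shares of all genes were not split by direction. With any library left out, 0 members were called. The members so called with weights were Gbp7, Irf1, Herc6, Ifi35, Trim30a, Parp9, Parp14, Ifih1 and Samhd1. Leaving out 1 library gave 2 to 16 members higher at an unadjusted p under 0.05, and 3 with shThoc1 replicates 2 and 3 summed. It gave 10 to 23 members higher without overlap, 23 being without shThoc1 replicate 1 and 19 without shControl replicate 1, and 0 to 1 lower, Ifi27l2a without shThoc1 replicate 2. Without shThoc1 replicate 2 the median of the family paralogues was 0.62, against 1.07. The other counts stayed within 1.5 times, and the medians of 3 lists moved by less than the pooled within-group SD of the list level, which was 0.61 for all members, 0.79 for the Ifit, Oas and Mx genes and 1.03 for the GTPases. With all 6 libraries these medians were 0.60, 0.31 and 0.65, each below its SD. A fall to 0 would therefore also have stayed within it, so the comparison cannot show that the medians were stable. The shift of the GTPase median came close to its SD without shControl replicate 1. With 1 library left out the medians ran from 0.14 to 0.87 for all members, 0.037 to 0.65 for the Ifit, Oas and Mx genes and 0.088 to 1.67 for the GTPases. Log2 fold changes turned sign for Oas2 (−0.019) with DESeq2, Oas2 (−0.020) with RLE scaling and Oas2 (−0.0036) without a filter. With sample quality weights they turned for Oas1a (−0.44), Oas2 (−0.99), Oasl1 (−0.012), Tgtp1 (−0.12), Irf7 (−0.36), Usp18 (−0.084), Cmpk2 (0.12), Ifi27l2a (−1.09), Rtp4 (−0.14), Zbp1 (−0.28), Adar (−0.099), and with shThoc1 replicates 2 and 3 summed for Oas1a (−0.23), Oas2 (−0.39), Irf7 (−0.0072), Usp18 (−0.21). With 1 library left out, at least 1 fit turned the sign for Oas1g (−0.62 to 0.33), Oas3 (−1.28 to 0.099), Oasl2 (−0.44 to 0.24), Iigp1 (−0.65 to 1.67), Isg15 (−0.46 to 0.39), Cmpk2 (−0.26 to 0.23), Ifi204 (−0.64 to 0.035), Oas1a (−0.45 to 0.61), Oas2 (−0.96 to 0.48), Oasl1 (−0.051 to 1.36), Gbp5 (−0.20 to 2.20), Irgm1 (−0.11 to 1.22), Tgtp1 (−0.43 to 1.87), Irf7 (−0.34 to 0.83), Usp18 (−0.23 to 0.43), Ifi27l2a (−1.21 to 2.56), Rtp4 (−0.28 to 0.72), Zbp1 (−0.47 to 1.34), Adar (−0.10 to 0.30), Ifit3 (−0.20 to 0.71), Rsad2 (−1.11 to 0.28), Ifit2 (−0.16 to 0.59). None of these was called, and the cause was not tested. No paired analysis was possible because the replicate numbers follow record order and the labels name no pairs. Members had 12 to 4686 counts per library, so counting error is larger for the genes with few counts, such as Oas1g and Mx1.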
